A study of Mus musculus with 3 samples.

Results

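Transcript levels of mast cell progenitors were compared with those of type 2 innate lymphoid cells, both sorted from the mouse peritoneal cavity. The values are log2 levels from 1 whole-transcript array per population, and the comparison is the progenitor level minus the innate lymphoid level. A gene was described when its level was above 8 on either of these arrays, which took in 964 of the 22180 genes measured. Each gene was represented by its brightest probe set among those that name 1 gene.

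Peritoneal cells were washed out of 5 naive female BALB/c mice aged 10 to 11 weeks and pooled, and 100 cells of each population were sorted and lysed. The mice carried no transgene or treatment that the labels name. Progenitors were lineage negative or low, high for c-kit, positive for FcεRI and for T1/ST2, intermediate for CD16/32, negative for CD127 and CD25, low in side scatter and high for integrin β7. The innate lymphoid cells were lineage negative, negative or low for c-kit, negative for FcεRI and CD16/32, and positive for CD127, CD25 and T1/ST2. The remaining array holds mature mast cells, which met the surface criteria of the progenitors except that side scatter was high and integrin β7 negative to intermediate, and their level is given beside the others. Since each population has 1 array from pooled animals, replicates are lacking: values carry no error, no difference could be tested, and the spread between mice or between amplifications is unknown. In such sorted pools, fewer cells of a type and less RNA per cell cannot be told apart.

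Mast cells arise from bone marrow progenitors that enter tissues before they acquire their full granules, which store proteases, histamine and serotonin on a heparin scaffold and are released when IgE on FcεRI is crosslinked. Type 2 innate lymphoid cells descend from the common lymphoid progenitor, depend on interleukin 7 and answer interleukin 33 through ST2 with interleukins 5 and 13. The study included them as a distant relative of mast cells, and both populations carry ST2, so the comparison sets a myeloid against a lymphoid cell of the same cavity.

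More genes were low than high in progenitors. Of the 964 genes, 38 (3.94%) exceeded the innate lymphoid level by 4-fold or more in progenitors, and 185 (19.2%) fell short of it by 4-fold or more. At 2-fold the counts were 104 higher (10.8%) and 319 lower (33.1%), which left 541 genes within 2-fold. These shares come from the choice of a level above 8 on either array, and each gene group below is read against them and against the median difference over the 964 genes, which was -0.25. Differences ran from -7.58 to 7.01, and the lower and upper quartiles were -1.44 and 0.25. The median over all 22180 genes was 0, because 12640 of them had exactly the same value on both arrays, as had 70 of the 964. Centring each array on its mean over the 964 genes, a shift of 0.62 in favour of progenitors, gave 67 higher and 125 lower genes, so that lower genes made up 65.1% of those past 4-fold in place of 83.0%. Under this shift each list median over genes above 8 given below keeps its sign, but the median over the 964 genes and that over genes with ordinary symbols turn positive. List medians over genes above 8 are descriptions: a gene that is above 8 on 1 array only had to be the higher there, so the value over all measured members is given beside them where it differs much.

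A low level in progenitors did not always set them apart from innate lymphoid cells alone. In 58 of the 185 lower genes the mature mast cell level was within 2-fold of the innate lymphoid level, so that the progenitor array was the low one of the 3. Of 12 measured reference genes, which most cells hold at steady levels, 5 were above 8, and 3 of these had a progenitor level lower by 4-fold or more and 1 a higher one, with a median of -3.52. Ywhaz, a 14-3-3 adaptor gene of that list, was at 7.69 on the progenitor, 11.34 on the mature mast cell and 11.21 on the innate lymphoid array, with 2 of its 3 probe sets past 4-fold. B2m and Eef1a1 were the other lower ones, and Rplp0 the higher one. Over all 12 reference genes the median was -0.11 and 7 were within 2-fold. The part of the quality of the progenitor array in the lower counts was not tested, and a lower call by itself does not mark expression particular to innate lymphoid cells.

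**Figure D1:**
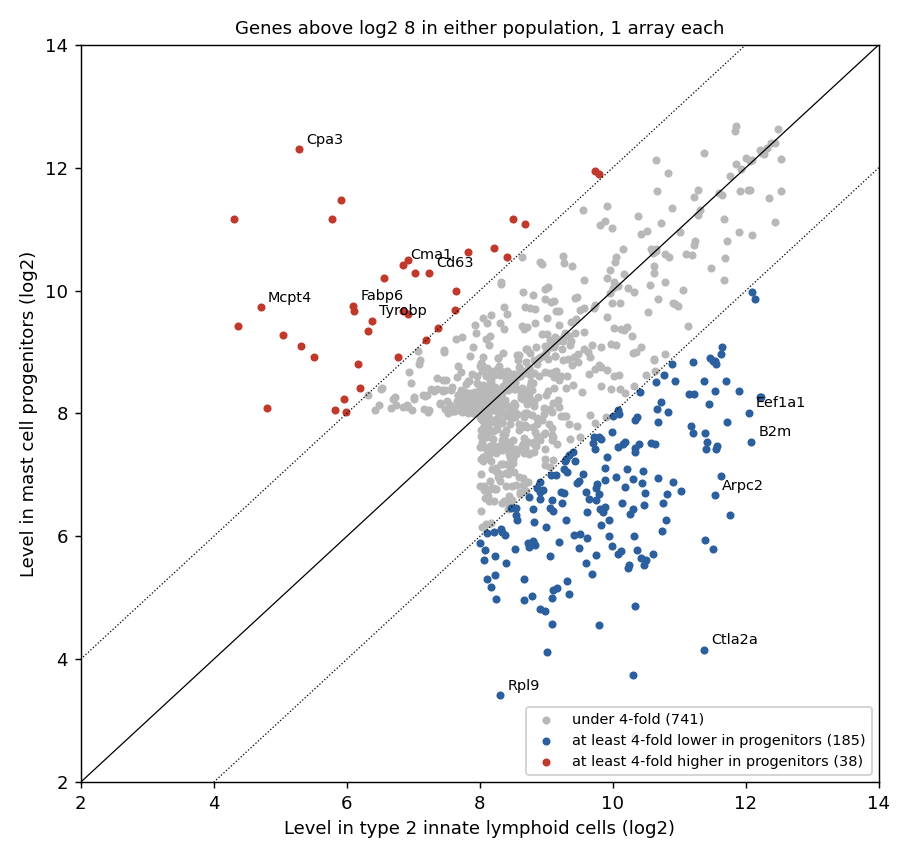
Each of the 964 genes is a point, with its log2 level in type 2 innate lymphoid cells on the horizontal axis and in mast cell progenitors on the vertical axis, 1 array each. The solid line marks equal levels and the dotted lines 4-fold, with 38 genes above the upper dotted line (red, led by Cpa3 at 12.30 against 5.28) and 185 below the lower dotted line (blue, among them Ctla2a at 4.16 against 11.37).

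Genes above 8 numbered 619 on the progenitor array and 811 on the innate lymphoid array, with 466 above it on both, 153 on the progenitor array only and 345 on the innate lymphoid array only. Just inside the limit lay Serpina11, at 8.0012 in progenitors and 7.52 in the innate lymphoid cells, and Tspo, at 7.45 and 8.0012. Just outside lay Coro1a, at 7.86 in progenitors and 7.998 in the innate lymphoid cells. Many of the differing genes had a dim side. The array medians were 6.32 for progenitors and 6.30 for innate lymphoid cells, and the dimmer level was below its array's median in 17 of the 38 higher and 69 of the 185 lower genes. For these genes the fold, where given, is at least the brighter level over that median. No fold is given where that bound is under 4-fold, nor for some genes with a larger bound, such as Fabp5 and Bag1.

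Granule protease genes held the largest difference in favour of progenitors. Of 14 measured mast cell protease genes, 5 were above 8, and 3 of these were at least 4-fold higher in progenitors and none lower, with a median difference of 3.58. All 5 were above 8 in progenitors and not in innate lymphoid cells, so their direction was fixed by the level limit. Over all 14 the median was 0.31, with 10 within 2-fold. Cpa3, the gene of mast cell carboxypeptidase, was at 12.30 in the progenitors, 12.83 in mature mast cells and 5.28 in the innate lymphoid cells, at least 63.6-fold higher in progenitors than in innate lymphoid cells. Mcpt4, a chymase gene of connective tissue mast cells, was at 9.73, 11.20 and 4.70 on the same arrays, a difference of at least 10.7-fold. A further chymase gene, Cma1, was at 10.42 in the progenitors, 11.76 in mature mast cells and 6.85 in the innate lymphoid cells, which is 11.9-fold. Both mast cell arrays were far above the lymphoid array for all 3 genes. The tryptase genes differed less. Tpsb2 was at 8.94 in progenitors and 7.85 in the innate lymphoid cells, 2.13-fold apart, with 11.74 in mature mast cells. Tpsab1 was at 8.26 against 7.80, with 8.63 in mature mast cells. The tryptase levels of progenitors thus lay nearer to those of innate lymphoid cells than to the mature level for Tpsb2.

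The 250 bases before the start of each of these 3 genes are shown with those of Ctla2a and Il7r, markers of the innate lymphoid side, because the genes of each side differ together between the arrays. Sequences are from RefSeq on GRCm38.p6, all on the minus strand and written 5′ to 3′ toward the gene's start: Cpa3 at chr3:20242182-20242431, Mcpt4 at chr14:56062311-56062560, Cma1 at chr14:55944676-55944925, Ctla2a at chr13:60936626-60936875 and Il7r at chr15:9529877-9530126. Capitals mark the letters GATAA or their reverse complement TTATC, which GATA factors, regulators of both lineages, are known to bind.
Cpa3: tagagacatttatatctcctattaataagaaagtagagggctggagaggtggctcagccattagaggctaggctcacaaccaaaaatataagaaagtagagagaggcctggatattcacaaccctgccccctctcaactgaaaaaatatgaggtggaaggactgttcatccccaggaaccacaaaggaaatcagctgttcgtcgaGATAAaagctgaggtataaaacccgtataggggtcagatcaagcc
Mcpt4: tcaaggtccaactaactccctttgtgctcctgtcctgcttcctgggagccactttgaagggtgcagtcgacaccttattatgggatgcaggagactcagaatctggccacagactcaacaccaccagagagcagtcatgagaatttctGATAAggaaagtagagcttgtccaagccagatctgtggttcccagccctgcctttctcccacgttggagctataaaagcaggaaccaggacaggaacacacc
Cma1: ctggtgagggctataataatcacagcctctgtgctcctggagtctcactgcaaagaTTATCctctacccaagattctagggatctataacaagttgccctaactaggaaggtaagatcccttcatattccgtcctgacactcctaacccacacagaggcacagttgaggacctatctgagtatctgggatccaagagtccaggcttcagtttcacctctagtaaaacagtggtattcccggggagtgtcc
Ctla2a: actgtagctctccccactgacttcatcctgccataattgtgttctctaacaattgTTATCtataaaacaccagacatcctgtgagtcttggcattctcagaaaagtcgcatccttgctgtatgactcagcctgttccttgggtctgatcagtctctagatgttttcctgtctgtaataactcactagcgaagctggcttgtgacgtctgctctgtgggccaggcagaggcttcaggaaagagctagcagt
Il7r: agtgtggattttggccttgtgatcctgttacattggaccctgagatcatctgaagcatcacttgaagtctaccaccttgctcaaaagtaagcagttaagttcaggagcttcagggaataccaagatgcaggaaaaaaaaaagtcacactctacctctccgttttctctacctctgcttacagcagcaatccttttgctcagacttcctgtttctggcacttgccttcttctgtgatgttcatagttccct
The window of Cpa3 holds 1 match whose first base lies 45 bases before the start, that of Mcpt4 1 match at 102 bases, that of Cma1 1 at 194 bases and that of Ctla2a 1 at 195 bases, while these letters are not in the window of Il7r. A further start of Ctla2a has none in its own window. The windows of Cd63, Casp1 and B2m, searched in the same way and not shown, hold none either. Matches of 5 letters are common: GATAA on either strand was found in 25.4% of all 32851 promoters of the table, each searched from 250 bases before to 50 bases after the start.

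The other letters searched, also on both strands, were TATAAA (the TATA box, 13.6% of all promoters), TGTGGT (RUNX, 16.8%), TGANTCA (AP-1, 7.81%), AGGTCA (the ROR site, 16.3%), CCGGAAG (ETS, 8.86%), GGGCGG (the GC box, 35.7%) and CANNTG (the E-box, 72.3%). The last can overlap any of the others. Promoters were found for 630 of the 964 genes, and GGGCGG stood in 53.6% of them and GATAA in 19.8%. Among the higher genes with ordinary symbols, 14 of 18 had a promoter, 16 in all, of which 7 held TGTGGT and 4 held GATAA. For the lower genes whose mature level lay near the progenitor level, 8 of 58 promoters held GATAA (13.8%), and for those whose mature level lay near the innate lymphoid level, 15 of 49 did (30.6%). These shares describe the letters and say nothing of binding.

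On the other mast cell lists, only Cd63, Tyrobp and Mrgprb2 were at least 4-fold higher in progenitors by measured difference. Cd63, a tetraspanin of granule and lysosome membranes that reaches the surface on degranulation, was at 10.29 in the progenitors, 10.54 in mature mast cells and 7.24 in the innate lymphoid cells, 8.29-fold higher in progenitors than in the last. Tyrobp, the adaptor DAP12 of activating receptors, was at 9.51, 11.15 and 6.37, which is 8.78-fold. Mrgprb2, the receptor through which cationic peptides and drugs activate mast cells, was at 8.06 in the progenitors, 8.16 in mature mast cells and 5.82 in the innate lymphoid cells. Aldh2, a mitochondrial aldehyde dehydrogenase from the list of lipid genes, was at 9.20, 11.41 and 7.19, 4.01-fold higher in progenitors. Its other probe set was tied between the arrays. For these 4 genes, as for the proteases, the mature mast cell level was at or above that of progenitors. Of 20 measured mast cell surface receptor genes 3 were above 8. Of these, Cd63 and Mrgprb2 were at least 4-fold higher in progenitors, and Lilrb4a went the other way. Lilrb4a was at 7.29 in the progenitors, 8.06 in mature mast cells and 9.92 in the innate lymphoid cells, 6.19-fold lower in progenitors. Over all 20 the median was 0.01, with 16 within 2-fold.

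Among the surface proteins for which progenitors were sorted as positive, the transcripts of Kit, Fcer1a, Ms4a2 and Itgb7 did not separate them from innate lymphoid cells. Il7r, the gene of CD127, for which progenitors were sorted as negative, did and is given below. Kit, the stem cell factor receptor, was at 6.88 in progenitors and 6.63 in the innate lymphoid cells, against 10.29 in mature mast cells. Fcer1a, the IgE-binding chain, was at 5.37 and 5.05, against 8.87 in mature mast cells, and Ms4a2, the β chain, was at 6.25 and 5.92, against 8.13. Itgb7, the integrin chain that marks the progenitors by protein, was at 7.60 in progenitors and 7.82 on both other arrays. Of the 11 mast cell marker genes checked, Cpa3, Mcpt4 and Cma1 were thus at least 4-fold higher in progenitors, Tpsb2 was past 2-fold, and Tpsab1, Kit, Fcer1a, Ms4a2, Hdc, Gata2 and Mitf were within 2-fold. On these arrays the transcripts of Cpa3, Mcpt4 and Cma1 were higher in progenitors than in innate lymphoid cells, and higher still in mature mast cells. The transcripts of Kit, Fcer1a, Ms4a2 and Itgb7 do not set progenitors apart from innate lymphoid cells. The marker genes were chosen with earlier results of these data known, so they are no check of the label.

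Lineage transcription factors were dim. Of 20 measured mast cell and progenitor factors, Bhlhe40 alone was above 8, at 7.54 in progenitors and 8.03 in the innate lymphoid cells, and of 16 innate lymphoid factors none was. Gata2, which both early haematopoietic cells and mast cells need, was at 7.59 in progenitors and 7.50 in the innate lymphoid cells. Gata3, which innate lymphoid cells need, was at 6.76 and 6.82. Levels were exactly tied for 11 of the mast cell and 10 of the innate lymphoid factors, and none on either list reached 2-fold. Among 14 measured genes for the granule proteoglycan and heparin, Srgn, the serglycin core, was above 8, at 8.13 in progenitors and 8.81 in the innate lymphoid cells. Of 12 mediator genes only Alox5, the 5-lipoxygenase of leukotriene synthesis, was above 8, at 8.24 and 7.82. The adaptor gene Lat2 was at 8.52 in the progenitors, 9.71 in mature mast cells and 7.84 in the innate lymphoid cells, and Lat was tied at 8.30.

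Some genes were higher in progenitors than on both other arrays. Fabp6, a bile acid binding protein gene known from the ileum, was at 9.75 in the progenitors, 5.67 in mature mast cells and 6.10 in the innate lymphoid cells, at least 10.9-fold above the last. Cks2, a subunit that binds cyclin-dependent kinases, was at 8.08, 5.74 and 4.80, and all of its 4 probe sets were past 4-fold, with differences from 3.28 to 6.53. Ptma, which encodes prothymosin α, was at 10.54, 7.69 and 8.41, a 4.37-fold difference from innate lymphoid cells. Commd6 was 5.28-fold higher, at 11.08 against 8.68, with 8.28 in mature mast cells. In 8 of the 18 higher genes with ordinary symbols the mature level was within 2-fold of the innate lymphoid level, in 5 it was within 2-fold of the progenitor level, in 4 it was more than 2-fold above both and in 1 it lay between. That 1 gene was Rplp0, a stalk protein of the large ribosomal subunit, at 9.66 in progenitors and 6.84 in the innate lymphoid cells by its brighter probe set, whereas its other probe set differed by -0.06. Psenen, a γ-secretase subunit, was 5.58-fold higher by the brighter probe set and at -0.13 by the other. Tent4b, a poly(A) polymerase gene, was 4.15-fold higher by the brighter and at -0.79 by the other. The remaining higher genes with ordinary symbols were Btbd35f28, Rsph3a, Spink4 and Cstdc6, with differences from 2.03 to 2.70.

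On the lymphoid side, a few receptors of type 2 innate lymphoid cells were higher there than in both mast cell populations. Of 26 measured cytokine and costimulatory receptors, 4 were above 8, and 3 of these were lower in progenitors by at least 4-fold and none higher. These 3 were above 8 on the innate lymphoid array only, so their direction was fixed by the level limit, and over the 26 the median was 0, with 23 within 2-fold and 14 exactly tied. Il7r, which encodes CD127, was at 5.89 in the progenitors, 5.76 in mature mast cells and 8.72 in the innate lymphoid cells, at least 5.29-fold lower in progenitors. Klrg1, an inhibitory receptor of mature lymphocytes, was at 6.05, 5.87 and 8.11. Tnfrsf18, the costimulatory receptor GITR, was at 7.38, 7.61 and 9.41, 4.09-fold lower. The remaining gene was Ptprc, the pan-leukocyte phosphatase CD45, at 8.01 in the progenitors, 8.62 in mature mast cells and 8.69 in the innate lymphoid cells.

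Of the other innate lymphoid markers, Arg1, an arginase that these cells hold at rest, was at 6.90 in progenitors and 9.49 in the innate lymphoid cells, 6.02-fold lower, with 7.07 in mature mast cells. Il2ra, the gene of CD25 in the sort, was at 6.58 in both mast cell populations and 7.25 in the innate lymphoid cells. The cytokine genes did not separate the arrays: Il5 was at 5.60 in progenitors and 6.09 in the innate lymphoid cells, and Il13 at 7.65 and 7.41. Rora, Thy1 and Il17rb were exactly tied, and Icos was at 5.84 and 6.32. So 4 of the 12 innate lymphoid marker genes, Il7r, Klrg1, Tnfrsf18 and Arg1, were lower in progenitors by 4-fold or more, and the other 8 were within 2-fold.

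**Figure D2:**
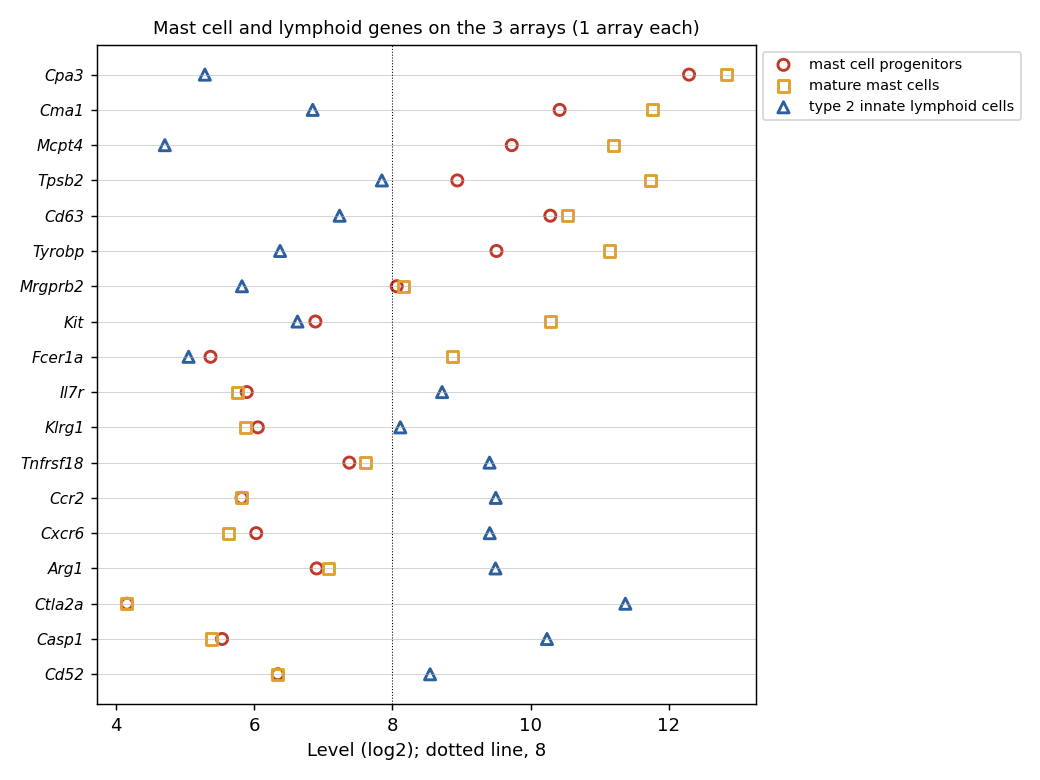
Log2 levels of 18 genes on the progenitor (red circles), mature mast cell (orange squares) and innate lymphoid (blue triangles) arrays, 1 array each, with a dotted line at 8. For Cpa3, Cma1, Mcpt4, Tpsb2, Cd63, Tyrobp and Mrgprb2 both mast cell symbols lie to the right of the triangle. For Kit and Fcer1a the circle lies close to the triangle and the square far to its right. From Il7r down to Cd52 the triangle lies to the right of both.

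Single genes from other lists had the same order of levels. Ctla2a, which encodes an inhibitor of cysteine proteases first found in activated T cells, was at 4.16 in both mast cell populations and 11.37 in the innate lymphoid cells, at least 33.3-fold lower in progenitors. Casp1, the protease that matures interleukin 1β and interleukin 18, was at 5.53 in the progenitors, 5.38 in mature mast cells and 10.24 in the innate lymphoid cells, at least 15.2-fold lower. Bcl2a1a, a survival gene of the BCL2 family, was at 5.93, 5.93 and 8.80, at least 5.61-fold lower. Cd52, a small glycoprotein of lymphocytes, was at 6.34, 6.34 and 8.55, and it was the only 1 of 32 measured lymphocyte signalling genes above 8. The other 31 were within 2-fold, 20 of the list exactly tied. The T cell receptor kinase Zap70 and the CD3 chains of that list stayed below 8 on both arrays.

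Of 17 measured chemokine receptor genes, 5 were above 8, with 2 at least 4-fold lower in progenitors, none higher and a median of -1.66. Over all 17 the median was 0, with 14 within 2-fold. Ccr2, the receptor for monocyte chemoattractant proteins, was at 5.82 in both mast cell populations and 9.50 in the innate lymphoid cells, at least 9.07-fold lower. Cxcr6, the receptor for CXCL16, was at 6.03 in the progenitors, 5.63 in mature mast cells and 9.41 in the innate lymphoid cells, at least 8.54-fold lower. Cxcr4, the receptor that holds cells in bone marrow, was 3.16-fold lower, at 7.50 against 9.16. The order was turned for Ccr7, a receptor for homing to lymph nodes, at 8.43 in progenitors and 7.59 in the innate lymphoid cells, and Cx3cr1 was tied at 8.19.

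Further genes with low levels in both mast cell populations came from lists of response, calcium and lipid genes. S100a4, a calcium-binding protein of motile cells, was at 6.87 in progenitors and mature mast cells and 10.44 in the innate lymphoid cells, 11.9-fold lower in progenitors. Klf6, an early response transcription factor, was at 6.94, 7.07 and 10.30, 10.3-fold lower. Gbp8, an interferon-induced GTPase, was at 5.03, 4.59 and 8.79, at least 5.55-fold lower. This was not shared by the other interferon genes above 8, Ifit1, Ifit3 and Ifitm2, which were 0.79 to 0.95 higher in progenitors. Fabp5, whose product binds fatty acids in the cytosol, was at 5.54, 5.91 and 10.47, and of its 4 probe sets 2 were past 4-fold while the differences ran from -5.08 to 0.00. Acss1, a mitochondrial acetyl-CoA synthetase, was at 6.51, 6.51 and 10.47, and its other probe set was tied. Outside the naming rule and chosen after their values were seen, Rnf125, a ubiquitin ligase, was at 6.69, 6.58 and 10.81, Emb, the adhesion protein embigin, at 7.54, 6.90 and 11.41, and Dgka, a diacylglycerol kinase that restrains lymphocyte activation, at 6.15, 6.07 and 8.99. All 3 were dim in both mast cell populations.

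By count, the ribosomal protein lists had the most lower genes, and that of the large subunit also had the most genes above 8. By share some smaller lists stood higher, such as S100 proteins and annexins with 4 of 7. Of 36 measured genes of the large subunit, 23 were above 8, with 8 at least 4-fold lower, 1 higher and a median of -0.99. Of 25 genes of the small subunit, 13 were above 8, with 7 at least 4-fold lower, none higher and a median of -2.11. Over all measured members the medians were -0.43 and -0.85. Rpl38 was at 7.46 in the progenitors, 10.95 in mature mast cells and 11.57 in the innate lymphoid cells, 17.2-fold lower in progenitors. Rps28 was at 5.61, 8.99 and 10.50, at least 18.2-fold lower by its brighter probe set, and differed by -0.04 by the other. Rps12 was at 8.97, 9.72 and 11.62, and all of its 8 probe sets were past 4-fold, from -3.29 to -2.58. Members of the same particle did not all differ. Rplp1 was at 11.22 in progenitors and 11.27 in the innate lymphoid cells, and Rps13 at 10.67 and 10.66. Rpl4 was at 12.13 and 12.09 by its brighter probe set and differed by -3.33 by the other. These 3 were chosen after their values were seen. Many ribosomal protein genes have near-identical processed copies, so probes may read more than the named gene.

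Among 34 measured translation factors, 16 were above 8, of which 3 were at least 4-fold lower and none higher, with a median of -0.89. That share is near the 19.2% lower among the 964 genes. Eef1a1, which brings aminoacyl-tRNA to the ribosome, was at 8.01 in the progenitors, 10.97 in mature mast cells and 12.04 in the innate lymphoid cells, 16.3-fold lower, and its other probe set differed by -0.61. Eef2, which moves the ribosome along, was at 7.54, 9.10 and 10.18, 6.26-fold lower. Tpt1, a growth-linked translation-associated protein, was at 11.63, 12.18 and 12.52, within 2-fold.

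**Figure D3:**
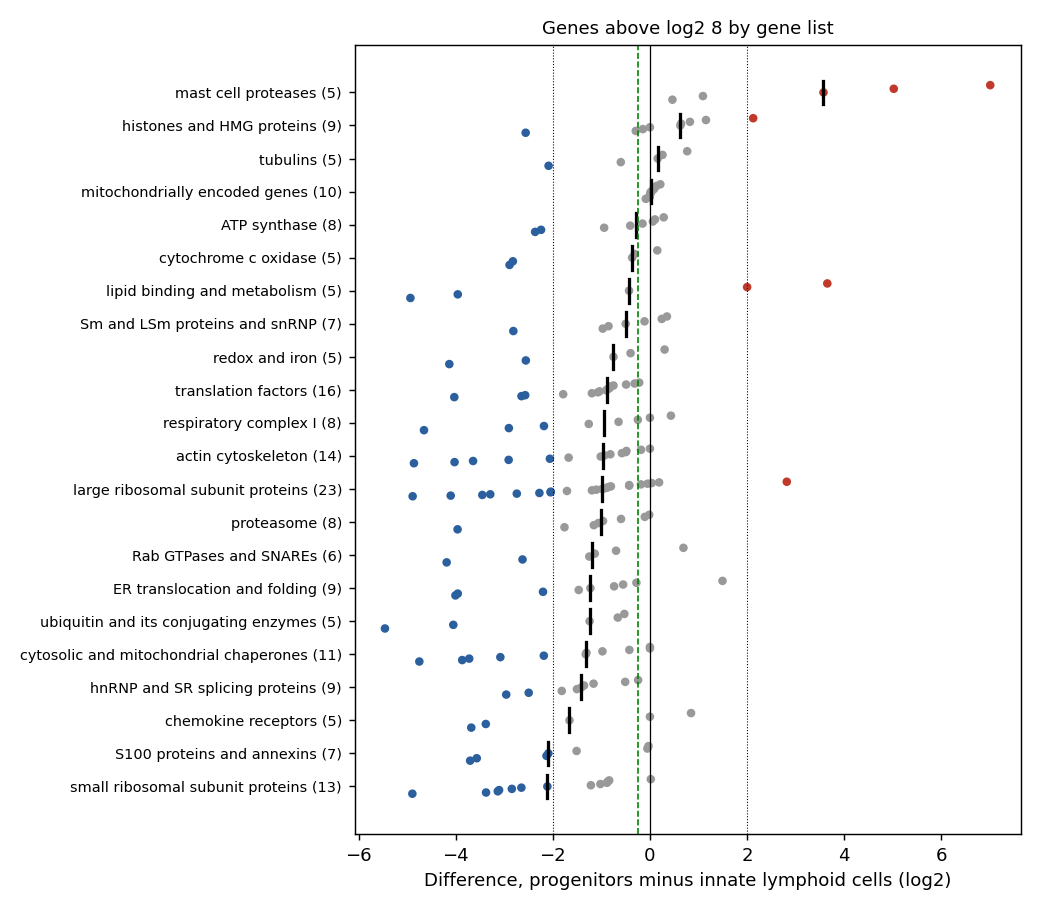
Each point is a gene above log2 8 and shows its difference, progenitors minus innate lymphoid cells (log2), by gene list, with the number of genes in parentheses. Black bars are list medians, dotted lines mark 4-fold, and the green dashed line is the median over the 964 genes (-0.25); the protease median of 3.58 lies far to the right and that of the small ribosomal subunit, -2.11, lies farthest to the left of the lists drawn.

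Mitochondrially encoded genes of the respiratory chain had like levels on both arrays, and some of the nuclear ones above 8 were lower in progenitors. All 10 measured mitochondrially encoded genes were above 8 and within 2-fold, with a median of 0.03. ND4 was at 12.63 in progenitors and 12.49 in the innate lymphoid cells, CYTB at 12.39 and 12.38, and COX1 at 12.24 and 12.25. Of 8 complex I genes above 8 that the nucleus encodes, 3 were lower in progenitors by at least 4-fold and none higher. Ndufa1 was the lowest of them, at 6.09 in the progenitors, 9.23 in mature mast cells and 10.75 in the innate lymphoid cells, at least 21.6-fold lower. Of 5 nuclear cytochrome c oxidase genes 2 were at least 4-fold lower: Cox5a, at 7.44, 7.71 and 10.33, and Cox4i1, at 8.32, 8.73 and 11.15. Of 8 ATP synthase genes 2 were, Atp5e at 8.84, 10.80 and 11.20 by both of its probe sets and Atp5b at 7.58, 9.44 and 9.83. The ATP synthase share is near the 19.2% lower among the 964 genes. Over all measured genes the medians were 0 for complex I, -0.32 for cytochrome c oxidase and -0.04 for ATP synthase. Within 2-fold were 27 of 33, 8 of 11 and 13 of 16 of them. Glycolysis had 1 gene above 8, Gapdh, at 9.18 in progenitors and 9.25 on the other arrays.

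Genes of protein making and turnover were lower in part. Of 9 genes of entry into and folding in the endoplasmic reticulum, 3 were at least 4-fold lower, with a median of -1.23, against -0.16 over all 36 measured. Pdia3, a disulfide isomerase that serves glycoproteins and MHC class I, was at 5.15 in progenitors and 9.16 on both other arrays, at least 7.18-fold lower. Spcs3, a subunit of the signal peptidase, was at 5.14, 5.69 and 9.09, at least 6.86-fold lower. Ssr1, a subunit of the translocon-associated complex, went the other way, at 9.55 in progenitors and 8.05 in the innate lymphoid cells. Of 8 proteasome genes, Psmc2, an ATPase of the regulatory particle, alone was past 4-fold, at 8.27, 10.84 and 12.23, by the brighter of its probe sets. That share is below the 19.2% lower among the 964 genes. Over all 35 measured proteasome genes the median was -0.05, with 29 within 2-fold. Pomp, which assembles proteasomes and was not on that list, was at 5.65 in the progenitors, 5.12 in mature mast cells and 10.43 in the innate lymphoid cells, at least 17.3-fold lower. Of 11 chaperone genes 5 were at least 4-fold lower, with a median of -1.32 against -0.25 over all 28 measured, among them Bag1, a partner of HSP70, at 5.48, 8.69 and 10.23, while Hspa8, the constitutive HSP70, was at 11.12 against 12.44.

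B2m, which encodes β2-microglobulin of MHC class I, showed the widest gap of the antigen presentation genes. It was at 7.54 in the progenitors, 12.11 in mature mast cells and 12.08 in the innate lymphoid cells, 23.3-fold lower in progenitors than in the last. H2-Q10, a class I gene, was at 8.86, 10.62 and 11.50 by the brighter of its 2 probe sets, and differed by -0.14 by the other. H2-K1, a classical heavy chain, was tied at 8.53. None of 7 measured MHC class II genes was above 8.

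The cytoskeleton and its regulators were mixed. Of 14 actin-related genes above 8, 5 were lower in progenitors by at least 4-fold and none higher, with a median of -0.97, against -0.14 over all 42 measured. Among these 5, Myl12a and Tpm3 had another probe set of opposite sign (0.19 and 0.59), and the probe sets of Actg1 ran from -2.91 to 0. Arpc2, a subunit of the Arp2/3 complex that branches actin filaments, was at 6.67 in the progenitors, 10.63 in mature mast cells and 11.53 in the innate lymphoid cells, 29.1-fold lower. Actr3, of the same complex, was at 6.88, 7.24 and 10.91, 16.3-fold lower, so that the mature level lay near the innate lymphoid level for the first gene and near the progenitor level for the second. Vim, the intermediate filament vimentin, was tied at 9.95, and was picked with its values known. Rap1b, a small GTPase that activates integrins, was at 8.52, 9.72 and 11.71, with both probe sets past 4-fold. Tubulins had a median of 0.16, with Tuba1b at 12.16 in progenitors and 12.00 in the innate lymphoid cells.

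S100 proteins, annexins and galectins had 7 genes above 8, with 4 at least 4-fold lower, none higher and a median of -2.09, against -0.02 over all 18 measured. Besides S100a4, S100a6 was at 7.68, 10.01 and 11.38, and Lgals1, which encodes galectin 1, at 8.52, 11.51 and 10.65, in the order of arrays used above. Anxa1, an anti-inflammatory annexin, differed by -0.05. Of 19 measured histone and HMG genes 9 were above 8, of which 6 were within 2-fold and 1 was past 4-fold in each direction, with a median of 0.63 against 0 over all 19. Ptma was at least 4-fold higher in progenitors, Hmgb1, a chromatin protein, was at 11.21 against 10.38, and Anp32b, a histone chaperone, was 5.90-fold lower, at 9.08 against 11.64. Of splicing proteins of the hnRNP and SR families, 2 of 9 were at least 4-fold lower, Hnrnpc at 6.92, 10.09 and 9.88 and Hnrnpu at 6.72, 9.04 and 9.22. That share is near the 19.2% lower among the 964 genes. Over all 33 measured splicing genes of these families the median was -0.14, with 26 within 2-fold.

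Several genes of general function had very low levels in progenitors, where the measured difference is less certain than the bound. Mterf1b, a gene of the mitochondrial transcription termination factor family, was at 2.75 in the progenitors, 9.77 in mature mast cells and 10.34 in the innate lymphoid cells, at least 16.3-fold lower. Chp1, a calcium-binding protein related to calcineurin B, was at 3.74, 8.11 and 10.30, at least 15.8-fold lower. Ppp1cb, a catalytic subunit of protein phosphatase 1, was at 5.79, 9.68 and 11.50, at least 36.4-fold lower by the brighter of its probe sets, and differed by -0.01 by the other. For all 3 the mature level was more than 8-fold above the progenitor level by the measured values, so none of them was high on the innate lymphoid array alone. Of the 185 lower genes 43 were at least 16-fold lower and 8 at least 32-fold lower by measured difference.

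The mature mast cell level divided the 185 lower genes. In 83 of them (44.9%) it was within 2-fold of the progenitor level, with median levels of 6.51 in the progenitors, 6.55 in mature mast cells and 9.55 in the innate lymphoid cells. These genes stood higher on the innate lymphoid array than on both others, among them Ctla2a, Casp1, Il7r, Ccr2, Cxcr6, S100a4 and Klf6. In 58 (31.4%) the mature level was within 2-fold of the innate lymphoid level, with medians of 6.69, 9.48 and 9.91. These genes stood lower on the progenitor array than on both others, among them B2m, Arpc2, Rpl38, Rps4x, Pdia3, Hnrnpc and Ube2k. In 40 (21.6%) it lay between, with medians of 6.90, 8.79 and 10.34, as for Eef1a1, Ndufa1 and Rps28. In the other 4 genes it lay above or below both. All 3 receptor genes past 4-fold on the innate lymphoid list, both chemokine receptor genes and both cytochrome c oxidase genes fell in the first class. Both lower ubiquitin-conjugating enzyme genes, both lower hnRNP genes and both lower ATP synthase genes fell in the second. The ribosomal lists were divided, with 2 genes in the first and 2 in the second class for either subunit, and actin-related genes had 1 in the first and 3 in the second. The classes share the arrays from which the genes were chosen, so these counts are a description.

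**Figure D4:**
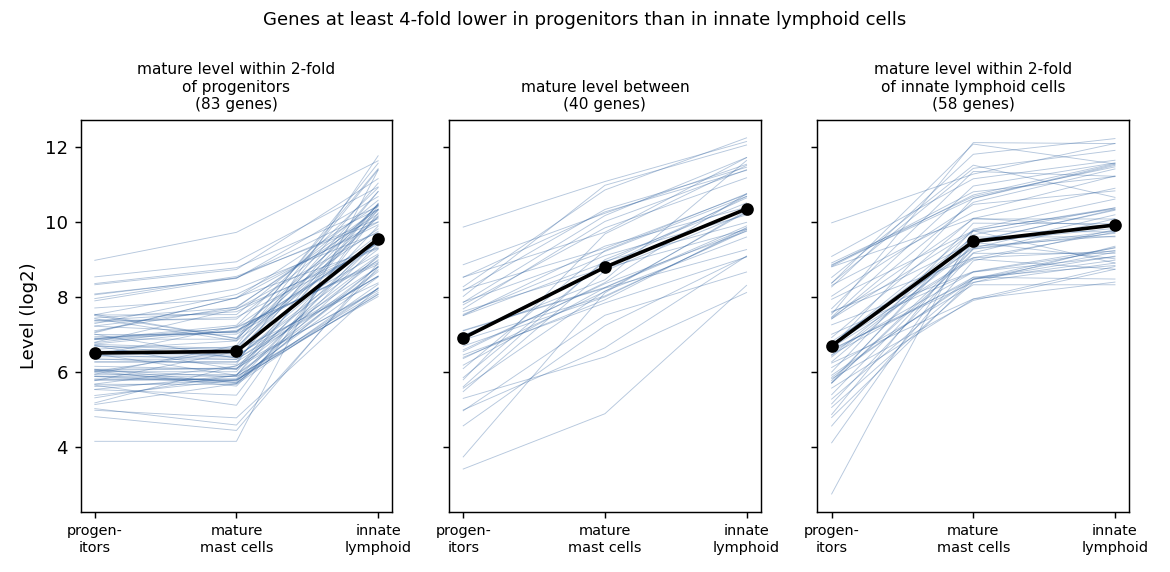
Log2 levels on the 3 arrays of the 185 lower genes except 4, split by where the mature mast cell level lies (83, 40 and 58 genes), with a thin line per gene and black points at the median. In the left panel the medians stay at 6.51 and 6.55 and then reach 9.55, and in the right panel they go from 6.69 to 9.48 and 9.91.

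Whether a gene was past 4-fold depended on its level. Where the brighter level was 8 to 9, 39 of 548 genes (7.12%) were lower and 8 higher. At 9 to 10 it was 60 of 201 lower (29.9%) and 14 higher, and at 10 to 11, 51 of 118 lower (43.2%) and 8 higher. Above 12 the share was smaller again, 6 of 29 (20.7%). Some of the brightest genes were alike on both arrays, others not. Malat1, a nuclear long noncoding RNA, was at 12.22 in progenitors and 12.27 in the innate lymphoid cells, Rn7sk, the 7SK small nuclear RNA, at 12.39 and 12.43, and Fth1, the ferritin heavy chain, at 11.63 and 12.03. Cpa3 was the higher gene above 12, and Psmc2, B2m and Eef1a1 were among the 6 lower ones. Lists with broadly expressed genes thus had members at equal levels and members many fold lower in progenitors, and the reason was not tested.

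Probe sets of a gene often disagreed. Of the 53 lower genes with several probe sets, 15 had at least 2 past 4-fold in that direction, as had 2 of the 8 higher genes with several. Among the named genes past 4-fold, 40 had several probe sets, of which 4 had all of them past 4-fold in the same direction, namely Cks2, Rps12, Rap1b and Atp5e, and 8 had a probe set of opposite sign. The markers Cpa3, Mcpt4, Cma1, Il7r and Ctla2a have 1 probe set each, so this comparison could not be made for them.

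Symbols of small RNAs, sensory receptors and provisional genes made up 20 of the 38 higher and 28 of the 185 lower genes. Without them 18 of 697 genes (2.58%) were at least 4-fold higher and 157 (22.5%) lower, with a median of -0.51. Olfactory and vomeronasal receptors, known from sensory neurons, had 39 genes above 8, with 4 higher and 4 lower (20.5% past 4-fold) and a median of 0.22. The share past 4-fold among these receptors is thus close to that among the 964 genes, but without the surplus on the lower side.

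Of 79 genes for microRNAs above 8, 9 passed 4-fold upward and 4 downward in progenitors, with a median of 0.33. Over the 964 genes 3.94% were higher and 19.2% lower, with a median of -0.25, so the surplus on the lower side was absent here too. RefSeq held mature sequences for 11 of the 13 microRNA genes past 4-fold, 18 sequences with 18 distinct seeds, so none shared a seed. The mature sequences of the genes with the largest difference in each direction are shown with those of Mir15a, whose product is known to repress the survival gene Bcl2, and Mir32, and capitals mark the seed, bases 2 to 8. They lie on GRCm38.p6 at chr13:40865801-40865820 on the plus strand, chr14:61632075-61632096 and chr4:56895272-56895293 on the minus strand, and chr14:54949072-54949093 on the minus strand.
mmu-miR-5124a: gGUCCAGUgacuaagagcau
mmu-miR-15a-5p: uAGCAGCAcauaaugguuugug
mmu-miR-32-5p: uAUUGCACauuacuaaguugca
mmu-miR-208a-3p: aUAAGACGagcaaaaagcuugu
The probe sets of these genes were hybridised with cDNA from total RNA, so they do not tell mature microRNA from precursor or host transcript. These 4 genes were chosen after their values were seen. Mir5124a was at 11.17 in the progenitors, 5.96 in mature mast cells and 4.31 in the innate lymphoid cells. Mir15a was at 10.49, 8.10 and 6.92, and Mir32 at 8.91, 5.35 and 5.51. Mir208a was at 6.74, 6.62 and 11.03, so the first 3 were highest in progenitors and the last in innate lymphoid cells.

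Markers of other peritoneal cells were low on both arrays. None of 9 T cell, 9 NK cell, 17 macrophage and monocyte, 12 neutrophil, 11 eosinophil and basophil, 12 mesothelial and stromal, and 3 erythroid and platelet markers was above 8. Of 9 B cell markers Ighm, the IgM heavy chain, was above 8, at 8.43 in progenitors and 8.24 in the innate lymphoid cells, and of 7 dendritic cell markers Cd209a, at 7.97 and 8.12. No marker of these 9 lists differed by 2-fold between the arrays. Genes of the sorted cells themselves, such as Kit, Fcer1a, Gata3 and Il2ra, were also below 8 on both arrays. A low marker here therefore does not show that other cells were absent. Summed macrophage and monocyte marker levels were 106.7 in progenitors and 105.5 in the innate lymphoid cells, and 9 of the 17 were exactly tied. Of the genes of DNA replication (22 measured) and mitosis (21 measured) none was above 8 and none differed by 2-fold.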

How the data were processed

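The 3 sorted populations, 100 cells each from 5 pooled mice, were measured on 1 array per population. The values are the log2 expression levels deposited by the authors for 41345 probe sets, made by RMA per the submitters' processing notes, with no software or version given. RMA corrects background, normalizes between arrays and summarises the probes of a set. Amplification of so little RNA can change the proportions of transcripts. Detection limits are not marked, and background signal shrinks differences of dim genes. The number of arrays limits the precision. A genome build for the probe sets is not given in the sources used here.

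Names came from the gene table of the platform, in which 23521 probe sets name 1 gene, 1814 several and 16010 none, and only the first were used. Entrez identifiers of 23328 matched RefSeq on GRCm38.p6. The brightest probe set by mean over the 3 arrays stood for each gene. Differences of log2 levels were counted at 2 (4-fold) and 1 (2-fold) among genes above 8 on either array. No test was possible. Counting was tested on simulated data. Work was done in Python 3.11.15 with pandas 2.3.3, numpy 2.4.6 and matplotlib 3.10.9.

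The genes, the 57 lists and the rules were chosen with earlier results of these data known. Lists held 1133 distinct measured genes, 245 of them above 8. Genes named were, by rule, the 20 largest differences past 4-fold in each direction without provisional, small RNA and sensory receptor symbols, all cell type markers, from each list the 6 or fewer members above 8 that differed most, the 10 brightest genes of each array and 3 genes on each side of the level limit. Names beyond the rule were picked with their values known, and not every gene it took is described. The result of 1 list is not reported here. Promoters and microRNAs are those of RefSeq on GRCm38.p6. Alternatives were other level limits, folds, probe set choices, scalings and symbol sets.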

Additional observations from a re-analysis of the deposited data

How the results depend on the processing

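With 1 array per population there was no replicate to leave out and no paired analysis was possible because the labels give no replicate numbers and each group has 1 array. Counts of genes past 4-fold stayed within 1.5 times of 38 higher and 185 lower under a level limit of 7 or 9, both other choices of probe set, setting both arrays to one median, quantile normalization and a 3-fold limit, between 30 and 51 higher and 146 and 226 lower. At 8-fold there were 19 higher and 91 lower genes, and without small RNA, sensory and provisional symbols 18 higher and 157 lower. Centring each array on its mean over the genes gave 67 higher genes, 9 lists with a median at least 2-fold lower in place of 15 and 5 at least 2-fold higher in place of 2, of 32 lists with 3 or more genes above 8, and 54 lower genes with a mature level within 2-fold of progenitors in place of 83. With a limit of 7 the list counts were 4 lower and 0 higher, since dim genes were added, and with a limit of 9 there was 1 higher. Within 1.5-fold, 31 lower genes had a mature level near innate lymphoid cells in place of 58. The probe set farthest from the reported one turned the sign of Rplp0 (-0.0553), Psenen (-0.13), Tent4b (-0.79), Ube2l3 (0.36), Spin1 (0.20), Cycs (1.36), Myl12a (0.19) and Tpm3 (0.59). The cause was not tested.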

Other observations

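Probe sets outside the comparison carried differences of the same size. Of 231 probe sets above 8 that name several genes, 23 (9.96%) passed 4-fold in favour of progenitors and 36 (15.6%) in favour of innate lymphoid cells, with a median of 0. Of 2263 probe sets above 8 that the table leaves unnamed, 219 (9.68%) were higher and 403 (17.8%) lower, with a median of 0.12. The share of higher ones was thus above the 3.94% found for named genes. The units differ, since here each probe set counts, whereas a named gene counts once, by its brightest probe set. No explanation was tested.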
